A study of Mus musculus with 10 samples.

Results

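The 10 genes Atf4, Atf5, Atf3, Ddit3, Trib3, Chac1, Sesn2, Asns, Psat1 and Phgdh form the core of the ATF4 axis, the transcriptional arm of the integrated stress response, and were followed in RNA of the embryonic mouse spinal cord with and without a cre transgene that deletes Dot1l. They were taken by name: each name was mapped to a gene identifier through the GENCODE annotation of the mouse genome, which gave 10 of the 54146 identifiers in the count table. All 10 were among the 18901 genes kept by a filter on low counts. Dot1l encodes a histone methyltransferase, and the question put to these genes is whether the spinal cord shows the raised stress and asparagine synthesis genes that have been linked to loss of Dot1l in the forebrain.

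The integrated stress response starts when kinases that sense amino acid shortage, misfolded protein, haem shortage or viral RNA phosphorylate the translation initiation factor eIF2. General translation then slows while the ATF4 message is translated better, and the ATF4 protein turns on genes for amino acid uptake and synthesis, tRNA charging, redox balance and its own feedback. Because ATF4 is largely controlled at translation, the messages of its targets are commonly read beside its own.

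Polyadenylated RNA of 10 embryos at E12.5 was sequenced, taken from lumbar cord that still carried its dorsal root ganglia. Litter 1 gave 3 controls and 3 Dot1l-cKO embryos, and litter 2 gave 2 of each. Controls were +/+ at the transgene, and carried Dot1l fl/fl in litter 1 and Dot1l fl/+ in litter 2. The Dot1l-cKO embryos of both litters were Wnt1cre2/+; Dot1l fl/fl, and the labels name the strain B6.Cg-E2f1Tg(Wnt1-cre)2Sor/J for every embryo. All embryos therefore carried at least 1 floxed allele, and controls of the 2 litters differed in its number. Wnt1-cre is known to be active mainly in the dorsal neural tube and the neural crest, so the tissue may mix cells with and without the deletion, and how far the deletion reached was not measured here. In such bulk tissue, fewer cells of a type and less RNA per cell cannot be told apart.

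Total counts per embryo lay between 40949585 and 68928443. Counts over the whole Dot1l gene were 87.6 to 107 CPM (reads of a gene relative to all counted reads, with library sizes adjusted by TMM) in controls and 97.8 to 112 CPM in the Dot1l-cKO embryos, and so do not check the genotype. Dot1l-cKO embryos are therefore named by their label. Both of them in litter 2 were at 6.00 and 6.79 CPM of Xist, against 499 to 890 CPM in the other 8 embryos, and had Y-linked messages, so that genotype and sex cannot be told apart within litter 2. The litters also differed in cell type markers: the summed level of 12 dorsal root ganglion markers was 1271 to 1358 CPM in litter 1 controls and 640 to 659 CPM in litter 2 controls. In the Dot1l-cKO embryos it was 998 to 1231 CPM in litter 1, below the controls, and 749 to 837 CPM in litter 2, above them. Summed endothelial markers (8 genes) were also apart in litter 1, at 267 to 288 CPM in the Dot1l-cKO embryos and 328 to 381 CPM in controls. Within litter 2 the Dot1l-cKO embryos lay above the controls for 9 blood genes (1665 to 2076 against 1351 to 1476 CPM), 10 mesenchyme genes (1405 to 1599 against 1161 to 1341 CPM) and 8 microglia genes (69.7 to 81.0 against 56.3 to 68.6 CPM). The part of these markers in the genotype values of Atf5, Ddit4 and the immediate-early genes was not tested.

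Promoters were searched for the core of the C/EBP-ATF response element, the sequence through which ATF4 and its C/EBP partners are known to act. The genes were taken as members of the ATF4 axis, and known targets of ATF4 are in part known through this element, so a match among them is not independent of the choice. The letters searched were TGATGNAA on both strands of the RefSeq promoter windows of build GRCm38.p6, which run from 250 bases before to 50 bases after each annotated start, and all 10 genes had a window. A match was found in 4 of the 10 genes, beside 1219 (4.51%) of the 27025 genes with a RefSeq window of full length. The matches are shown with 11 bases on each side, 5′ to 3′ on the strand of the gene, with the match in capitals.
Asns: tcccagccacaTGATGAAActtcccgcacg
Chac1: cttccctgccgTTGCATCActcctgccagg
Atf3: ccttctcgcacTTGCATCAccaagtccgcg
Trib3: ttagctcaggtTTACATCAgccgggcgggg
The Asns stretch lies at chr6:7693214-7693243 on the minus strand, with the match 23 to 16 bases before the RefSeq start and in forward orientation. The other 3 matches read in the opposite orientation. Those of Chac1 (chr2:119351038-119351067, plus strand) and Atf3 (chr1:191183425-191183454, minus strand) lie 193 to 186 and 110 to 103 bases before the RefSeq start. That of Trib3 (chr2:152344028-152344057, minus strand) lies 14 to 21 bases after the RefSeq start. Against the GENCODE gene positions, the Asns and Atf3 matches lie within the gene and the Trib3 match before it. The windows of Atf4, Atf5, Ddit3, Psat1, Phgdh and Sesn2 held no match to these letters. A match is a string of letters, and binding was not measured.

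None of the 10 genes passed the test between genotypes. With the quasi-likelihood test of edgeR, the litter in the model and Benjamini-Hochberg adjustment over all 18901 genes, 0 of the 10 had an adjusted p below 0.05, where 3.19% of all tested genes did (376 higher and 226 lower). Only Atf5 had an unadjusted p below 0.05 in that fit, 1 of the 10 genes where 22.2% of all genes did. DESeq2 and limma-voom, with the same model, also called 0 of the 10. Within litter 1, 0 of 10 passed beside 0.661% of all genes, with 0 at an unadjusted p below 0.05 (15.7% of all genes). Within litter 2, 0 of 10 passed beside 0.190%, with 1, again Atf5, at an unadjusted p below 0.05 (17.8% of all genes). The difference of the genotype effect between the litters passed for 0 of 10, beside 0.0106% of all genes, with Atf5 the 1 gene at an unadjusted p below 0.05 (8.43% of all genes). The median log2 fold change of the 10 genes was 0.06, with 8 positive and 2 negative values, beside -0.01 over all tested genes, of which 9044 were positive and 9857 negative. For all 10 the ranges of the 5 embryos of each group overlapped, while 1.92% of all genes had groups that did not overlap.

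**Figure D1:**
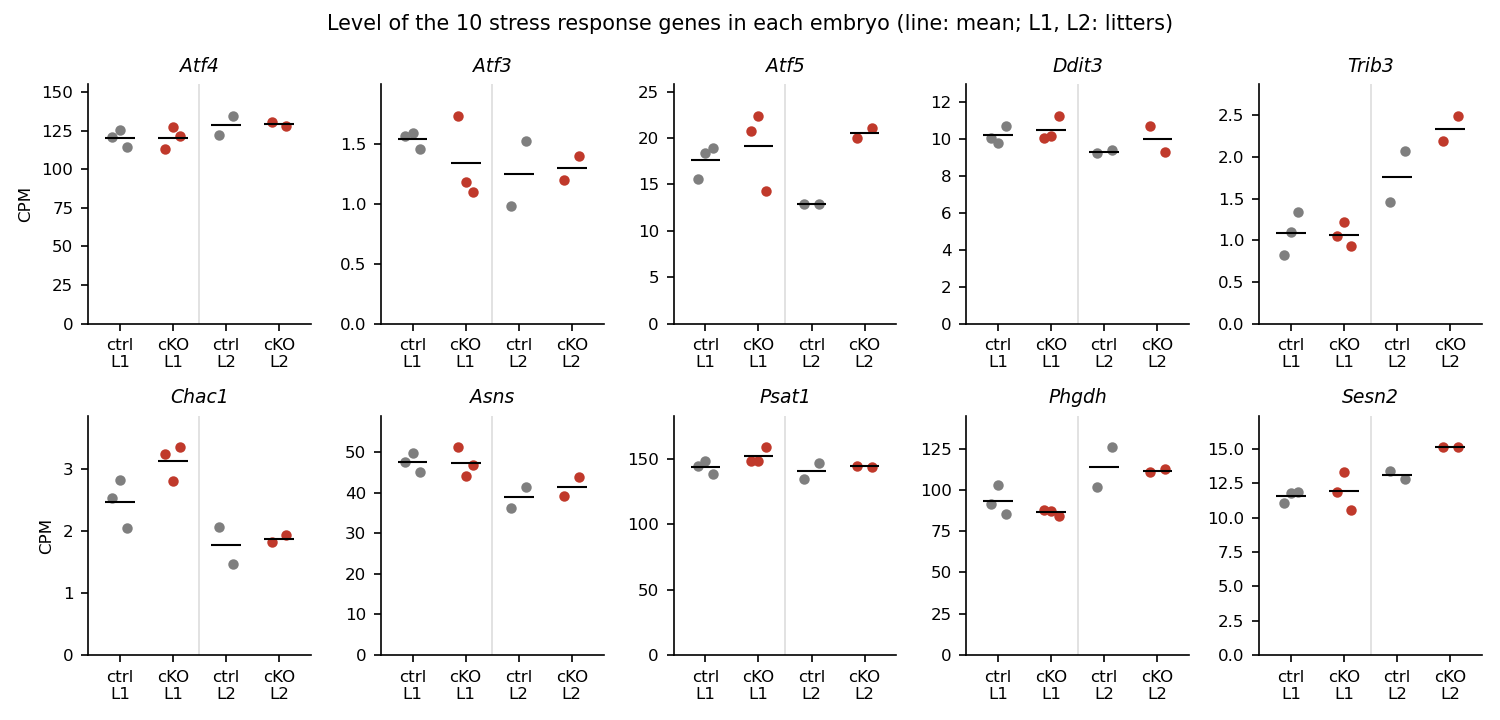
Level of each of the 10 genes in CPM (linear axis from 0) in each embryo, with controls in grey, Dot1l-cKO embryos in red, litters 1 and 2 (L1, L2) split by a line, and a bar at the mean of each litter and genotype. Control and Dot1l-cKO points overlap for every gene over the 5 embryos per group. Within litter 2, Atf5, Trib3 and Sesn2 show both Dot1l-cKO embryos above both controls.

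Among the regulators, Atf4 itself was the most abundant and had the genotype difference closest to 0. In litter 1 it was at 121, 126 and 114 CPM in controls and at 113, 127 and 122 CPM in the Dot1l-cKO embryos. In litter 2 it was at 122 and 135 CPM in controls and at 131 and 128 CPM in the Dot1l-cKO embryos. The groups overlapped in both litters. The mean was 124 ± 7.52 CPM (SD, n = 5) in controls and 124 ± 7.12 CPM (SD, n = 5) in the Dot1l-cKO embryos, with a log2 fold change of 0.01 (standard error 0.05, adjusted p = 0.954). The 95% interval of the difference ran from -6.30% to 7.70%. It was from -8.58% to 10.0% within litter 1 and from -10.1% to 12.8% within litter 2. Atf4 also gave no call between the litters (log2 fold change of litter 2 over litter 1 among controls 0.10, adjusted p = 0.337).

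Atf5 encodes a bZIP factor related to ATF4 whose message is likewise controlled at translation, and over both litters it had the largest genotype difference of the 10. That of Chac1 was larger within litter 1, with Xist as a covariate, and without control embryo 5 of litter 2 (log2 fold change 0.35 against 0.28). Litter 1 controls were at 15.5, 18.4 and 19.0 CPM of Atf5, and the Dot1l-cKO embryos at 20.7, 22.4 and 14.3 CPM. Litter 2 controls were at 12.9 and 12.9 CPM, and the Dot1l-cKO embryos at 19.97 and 21.1 CPM. In litter 1 the groups overlapped because embryo 7 lay below all controls, and in litter 2 they were apart, with the controls at the lowest values of all 10 embryos. The log2 fold change was 0.34 over both litters (standard error 0.13, adjusted p = 0.147), 0.12 within litter 1 (adjusted p = 0.743) and 0.67 within litter 2 (standard error 0.17, adjusted p = 0.122). The 95% interval over both litters was 4.28% to 52.7%. The difference between the litters was 0.56 on the log2 scale and did not pass (adjusted p = 0.549).

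The Atf5 result depended on single embryos and settings. Over 18 alternatives the adjusted p over both litters ran from 0.000853 to 0.850 and the direction stayed positive. It passed in 2 of them, without embryo 7 of litter 1 (log2 fold change 0.46, adjusted p = 0.00949) and without the filter on low counts (0.34, adjusted p = 0.000853). Within litter 2 Xist was low in both Dot1l-cKO embryos only, so Xist as a covariate cannot separate sex from genotype there. With that covariate the Atf5 difference was 0.09 on the log2 scale (adjusted p = 0.850), beside 0.12 within litter 1. Within litter 2 it passed in 2 of 6 alternatives, with DESeq2 (0.67, adjusted p = 0.0105) and with the embryos of that litter alone in the fit (0.68, adjusted p = 0.00248), and in those 6 the adjusted p ran from 0.00248 to 0.588. Exons of Atf5 overlap those of Nup62 and Il4i1 on the opposite strand, and whether counting used strand is not given in the sources used here. Nup62, a nuclear pore gene, was at 66.2 to 91.5 CPM with a log2 fold change of -0.05 (adjusted p = 0.508).

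Atf3, a repressor induced downstream of ATF4 and by many other stresses, was scarce. It was at 1.56, 1.58 and 1.46 CPM in litter 1 controls against 1.73, 1.18 and 1.10 CPM in the Dot1l-cKO embryos. Litter 2 had 0.976 and 1.52 CPM against 1.20 and 1.40 CPM. The groups overlapped in both litters and the log2 fold change was -0.09 (standard error 0.18, adjusted p = 0.798). The mean count was 75.5 per embryo and the 95% interval ran from -28.2% to 22.1%.

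Ddit3 encodes CHOP, the factor that links lasting stress to cell death. Its level was 9.21 to 10.7 CPM in controls and 9.25 to 11.2 CPM in the Dot1l-cKO embryos, overlapping in each litter. The log2 fold change was 0.06 (standard error 0.07, adjusted p = 0.646), with a 95% interval of -6.23% to 16.6%. Exons of Ddit3 overlap those of Mars on the opposite strand, a tRNA synthetase gene at 83.8 to 111 CPM (log2 fold change -0.09, adjusted p = 0.225). A second identifier with the Ddit3 name holds 105 exonic bases within it and had 0 counts in every embryo.

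Trib3, Chac1 and Sesn2 were also without a call. Trib3 encodes a pseudokinase that binds and restrains ATF4. It was at 0.826, 1.10 and 1.34 CPM in litter 1 controls and 1.05, 1.22 and 0.928 CPM in the Dot1l-cKO embryos, and at 1.45 and 2.07 CPM in litter 2 controls and 2.19 and 2.50 CPM in the Dot1l-cKO embryos. Litter, more than genotype, ordered these values, since every embryo of litter 2 lay above every embryo of litter 1. The genotype difference was 0.16 on the log2 scale (standard error 0.18, adjusted p = 0.658) and the litter difference among controls was 0.68 (standard error 0.26, adjusted p = 0.0669). Leaving out 1 embryo at a time moved the genotype value between 0.029, without control embryo 5 of litter 2, and 0.28, without control embryo 9 of litter 1. The litter difference passed without control embryo 9 of litter 1 (0.87, adjusted p = 0.0392) and was 0.41 without control embryo 7 of litter 2 (adjusted p = 0.422). The gene lies 2.22 Mb from E2f1, at which the labels place the transgene, and E2f1 moved with both litter and genotype. It was at 21.6 to 23.8 CPM in controls and 14.2 to 19.4 CPM in the Dot1l-cKO embryos of litter 1, and at 42.0 to 46.9 CPM in controls and 36.5 to 38.8 CPM in the Dot1l-cKO embryos of litter 2. In each litter every Dot1l-cKO embryo lay below the controls (log2 fold change of E2f1 -0.32, adjusted p = 0.0492). The part of that locus in the Trib3 levels was not tested.

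Chac1, whose product degrades glutathione and which is among the most inducible ATF4 targets, was at 2.53, 2.82 and 2.04 CPM in litter 1 controls and 3.25, 2.81 and 3.35 CPM in the Dot1l-cKO embryos. In litter 2 it was at 2.07 and 1.47 CPM in controls and 1.82 and 1.93 CPM in the Dot1l-cKO embryos. In litter 1 the groups overlapped by a single pair of embryos. The log2 fold change was 0.25 over both litters (standard error 0.14, adjusted p = 0.324), 0.35 within litter 1 (adjusted p = 0.358) and 0.07 within litter 2 (adjusted p = 0.896). With a mean count of 136 per embryo, the 95% interval ran from -3.70% to 46.6%.

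Sesn2, a stress-induced leucine sensor that holds back mTORC1, was at 11.1, 11.8 and 11.8 CPM in litter 1 controls and 11.9, 13.3 and 10.6 CPM in the Dot1l-cKO embryos. Litter 2 had 13.4 and 12.8 CPM against 15.1 and 15.1 CPM. As for Atf5, embryo 7 was the lowest of its litter and both litter 2 Dot1l-cKO embryos lay above their controls. The log2 fold change was 0.11 (standard error 0.08, adjusted p = 0.428). Within litter 2 the groups were apart for Atf5, Trib3 and Sesn2, 3 of the 10 genes, where 52.4% of all genes had groups of 2 that did not overlap. Within litter 1 they were apart for 0 of the 10, beside 18.7% of all genes.

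The amino acid synthesis enzymes were abundant and gave narrow intervals. Asns, asparagine synthetase, was at 47.4, 49.8 and 45.1 CPM in litter 1 controls and 51.2, 44.0 and 46.7 CPM in the Dot1l-cKO embryos. Litter 2 had 36.3 and 41.4 CPM in controls and 39.1 and 43.9 CPM in the Dot1l-cKO embryos. The groups overlapped in both litters. The log2 fold change was 0.04 (standard error 0.06, adjusted p = 0.775), and the 95% interval ran from -6.35% to 12.1%.

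Phgdh, the first enzyme of serine synthesis, was at 91.2, 103 and 85.3 CPM in litter 1 controls and 88.1, 87.3 and 84.4 CPM in the Dot1l-cKO embryos. The litter 2 values were 102 and 126 CPM in controls and 111 and 112 CPM in the Dot1l-cKO embryos. The groups overlapped in both litters, with a log2 fold change of -0.07 (standard error 0.06, adjusted p = 0.510) and a 95% interval of -13.4% to 4.08%. Psat1, the next enzyme of that pathway, was at 134 to 148 CPM in controls and 144 to 159 CPM in the Dot1l-cKO embryos. Its log2 fold change was 0.06 (standard error 0.04, adjusted p = 0.424), with a 95% interval of -2.02% to 11.2%.

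**Figure D2:**
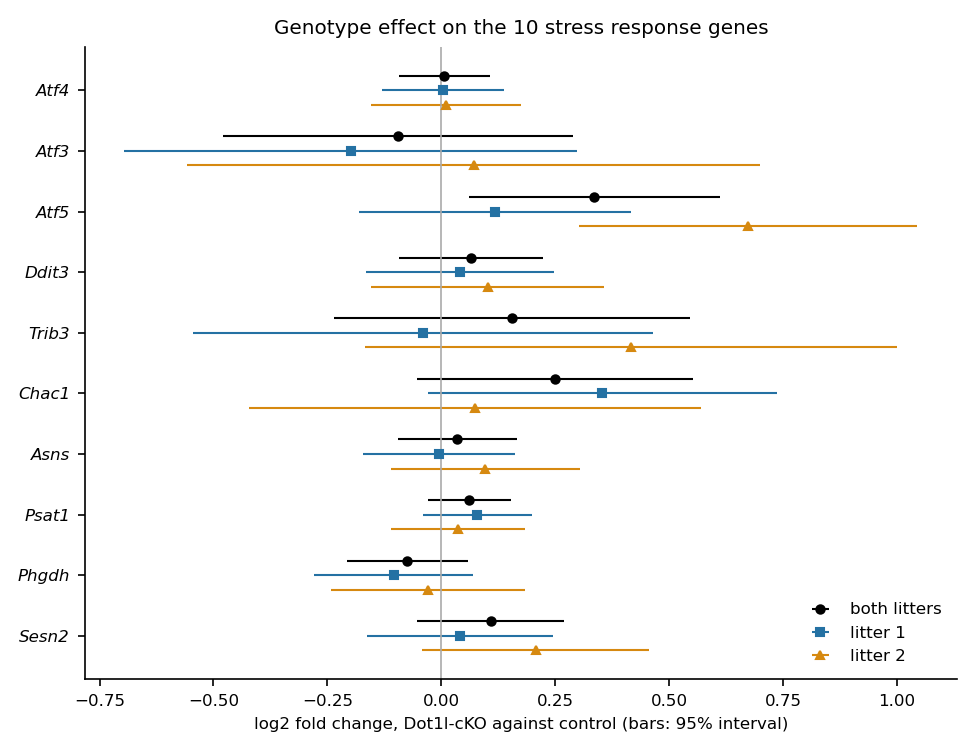
Log2 fold change of the Dot1l-cKO embryos over controls for each gene, over both litters (black circles), within litter 1 (blue squares) and within litter 2 (orange triangles), with bars for 95% intervals. The intervals of Atf4, Asns, Psat1 and Phgdh are narrow and cross 0, those of the scarce Atf3 and Trib3 are wide, and Atf5 has intervals above 0 over both litters and in litter 2 without passing the adjusted threshold.

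Between the litters, 2 of the 10 genes differed, and in opposite directions. Among controls, Phgdh was higher in litter 2 (113.9 ± 16.9 CPM, SD, n = 2) than in litter 1 (93.1 ± 8.90 CPM, SD, n = 3), with a log2 fold change of 0.29 (standard error 0.09, adjusted p = 0.0301). Asns was lower in litter 2 (38.8 ± 3.59 CPM, SD, n = 2) than in litter 1 (47.4 ± 2.37 CPM, SD, n = 3), with a log2 fold change of -0.29 (standard error 0.09, adjusted p = 0.0283). That is 2 of 10 genes, beside 25.7% of all tested genes called between the control litters (12.7% higher and 13.0% lower in litter 2). Litter, the number of floxed alleles and the level of dorsal root ganglion markers cannot be told apart in this comparison.

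Both calls were lost without some single embryos. The Asns call was lost without control embryo 4 (log2 fold change -0.29, adjusted p = 0.0661) or 5 (-0.25, adjusted p = 0.0897) of litter 1 or embryo 5 of litter 2 (log2 fold change -0.19, adjusted p = 0.247), and over 8 alternatives its adjusted p ran from 0.00626 to 0.247. The Phgdh call was lost without control embryo 4 (log2 fold change 0.28, adjusted p = 0.0828) or 9 (0.23, adjusted p = 0.0917) of litter 1 or embryo 7 of litter 2 (log2 fold change 0.13, adjusted p = 0.401), and without embryo 5 of litter 2 its log2 fold change was 0.44. Over the same 8 alternatives its adjusted p ran from 0.00253 to 0.401. Atf5 was lower in litter 2 controls by a margin near the threshold (log2 fold change -0.45, adjusted p = 0.0538), and it passed in 4 of the 8 alternatives (adjusted p from 0.000875 to 0.199). The ganglion markers moved with this comparison, with 12 of 12 lower in litter 2 controls (median log2 fold change -1.05), as did progenitor markers, with 7 of 12 higher and 1 lower (median 0.42). Lower in litter 2 controls were also 7 of 8 endothelial (median -0.50), 6 of 8 neural crest glia (median -0.74) and 6 of 10 mesenchyme markers (median -0.52). Their part in the Asns, Phgdh and Atf5 values was not tested.

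Levels can be set against each other only per length, and CPM per kilobase of exon spanned a wide range among the 10 genes. Atf4 stood at 52.5 ± 2.93 (SD, n = 10 embryos), above 96.0% of all tested genes on that scale. Phgdh followed at 39.8 ± 5.66 and Psat1 at 34.2 ± 1.53, and Phgdh lay above Psat1 in 9 of 10 embryos. Asns (16.3 ± 1.70), Atf5 (8.90 ± 1.78), Ddit3 (5.86 ± 0.396) and Sesn2 (3.65 ± 0.449) came next in that order in every embryo. Chac1 was at 1.47 ± 0.389, Trib3 at 0.691 ± 0.273 and Atf3 at 0.636 ± 0.113, and the last pair was not separated, with Trib3 above Atf3 in 5 of 10 embryos. Thus the regulators spanned the whole order, while the 3 synthesis enzymes all lay near its top and Sesn2, Chac1 and Trib3 near its foot. Sesn2 still lay above 50.1% of all tested genes.

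The spread between embryos of the same litter and genotype was smallest for Psat1, at a coefficient of variation of 4.01%, and Atf4, at 5.26%. It was 7.29% for Asns, 8.30% for Phgdh, 6.22% for Ddit3 and 6.99% for Sesn2. It was 14.3% for Atf5, for which counting alone gives 3.18%. Chac1, Trib3 and Atf3 varied by 14.6%, 19.1% and 20.1%, where counting alone gives 8.57% to 11.5%.

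As a description over the 10 embryos, with the mean of each litter subtracted, log2 CPM of Atf5 followed that of Sesn2 most closely (Pearson's r = 0.942), then that of Trib3 (0.742), while Atf3 followed Asns (0.793). Atf4 followed Phgdh (0.609) and Psat1 (0.558) most closely, and its values with the other 7 genes lay between -0.119 and 0.183. Genes measured in the same library share its depth and tissue makeup, and no test was made. Of 10582 genes with a mean of at least 10 CPM, those most like Atf4 included Rbmxl1 (0.956), Mrpl10 (0.946) and Ttc8 (0.897). Those most like Asns were St3gal5 (0.955), Tubb5 (0.929), Arhgdig (0.929) and Prdx5 (0.923), and those most like Phgdh were Eif4a3 (0.962), Rps20 (0.960), Psmc4 (0.952) and Ppp1cc (0.928). Each is among the highest of 10582 values from 10 embryos, a choice that gives high r even among unrelated genes.

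The wider pathway was read from 11 lists of genes around the ATF4 axis, of which 139 of 143 genes were tested. Over both litters 1 gene was higher, Ddit4, and 0 were lower, which is 0.719% of the 139 and below the 3.19% of all genes. Of the 139, 93 had a negative log2 fold change (66.9%, beside 52.2% of all tested genes).

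**Figure D3:**
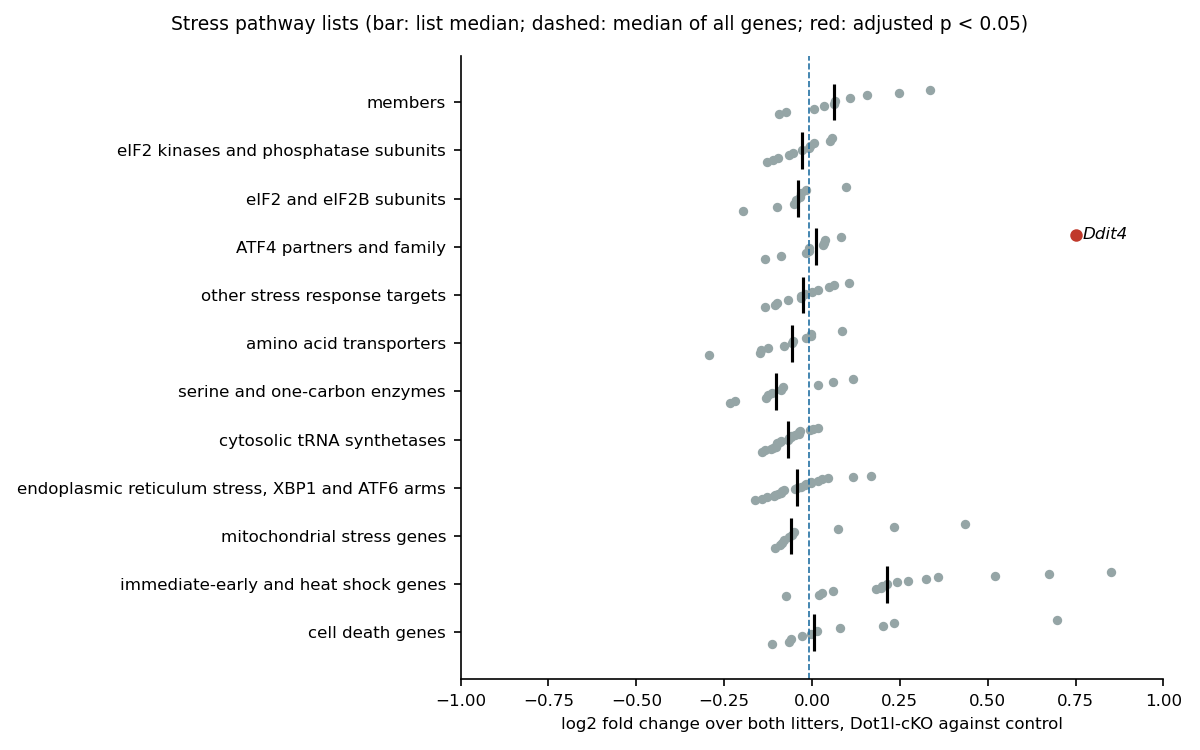
Log2 fold change over both litters for each gene of the 10 members and of 11 pathway lists, with a black bar at the list median, a dashed line at the median of all tested genes and red for an adjusted p below 0.05. Ddit4, at 0.75, is the only red point, and the immediate-early and heat shock list has the highest median, at 0.21.

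Ddit4, also known as Redd1, is induced by ATF4, by p53, by glucocorticoids and by low oxygen, and restrains mTORC1. It was at 41.2, 55.0 and 53.3 CPM in litter 1 controls and 71.9, 93.6 and 56.5 CPM in the Dot1l-cKO embryos. In litter 2 it was at 39.1 and 38 CPM in controls and 70.9 and 86.4 CPM in the Dot1l-cKO embryos. All 5 Dot1l-cKO embryos lay above all 5 controls, where 1.92% of all genes had groups that did not overlap. Embryo 7 of litter 1 was the closest to the controls. The log2 fold change was 0.75 (1.68-fold, standard error 0.13, adjusted p = 0.0179), with 0.57 within litter 1 (adjusted p = 0.106) and 1.03 within litter 2 (adjusted p = 0.0547). Within litter 1 it passed without embryo 7 (0.73, adjusted p = 0.0344) in 1 of 8 alternatives and was at 0.36 without embryo 3 (adjusted p = 0.130). Within litter 2 it passed in 2 of 6 alternatives, with DESeq2 (adjusted p = 0.00757) and with that litter alone in the fit (adjusted p = 7.83e-05). The call over both litters was lost without control embryo 4 of litter 1 (adjusted p = 0.0556), control embryo 5 of litter 2 (0.0529) or Dot1l-cKO embryo 6 of litter 2 (0.0547), with the robust form of the test (0.0506), without the litter term (0.232) and with Xist as a covariate (log2 fold change 0.55, adjusted p = 0.167). As Xist goes with genotype within litter 2, the fit with Xist cannot separate sex from genotype there. The Ddit4 call held in 12 of 18 alternatives, and in all 18 the direction was the same. Among fits without the call its log2 fold change ran from 0.55, with Xist, to 0.75, with the robust form. The other 9 tested genes of its list, partners and relatives of ATF4 such as Cebpg (log2 fold change -0.13, adjusted p = 0.172), did not pass.

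Upstream of ATF4, 0 of 11 kinase and phosphatase genes passed, and 8 of the 11 had negative values (median log2 fold change -0.03). Eif2ak3, the kinase PERK of the endoplasmic reticulum, was at -0.13 (adjusted p = 0.137), and Eif2ak4, the amino acid sensor GCN2, at -0.11 (adjusted p = 0.219). Ppp1r15b, the constitutive phosphatase subunit for eIF2, was at -0.10 (adjusted p = 0.202).

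Of 8 genes for subunits of eIF2 and of its exchange factor eIF2B, 0 passed over both litters, with Eif2b3, a subunit of eIF2B, at a log2 fold change of -0.10 (adjusted p = 0.277), while within litter 2 Eif2s3x was lower. Eif2s3x encodes the gamma subunit of eIF2 on the X chromosome, and Eif2s3y is its Y-linked copy. Eif2s3x was at 108 and 109 CPM in litter 2 controls and at 70.8 and 71.3 CPM in the litter 2 Dot1l-cKO embryos, a log2 fold change of -0.61 (standard error 0.08, adjusted p = 0.00759). Within litter 1 it was at 79.4 to 91.6 CPM against 88.0 to 95.5 CPM (log2 fold change 0.08, adjusted p = 0.582). Eif2s3y was at 39.7 and 32.9 CPM in the litter 2 Dot1l-cKO embryos and at 0.319 CPM or less in the other 8. The sum of both copies was 108 to 109 CPM in litter 2 controls and 104 to 110 CPM in the Dot1l-cKO embryos of that litter, so the groups overlapped once the copies were added.

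**Figure D4:**
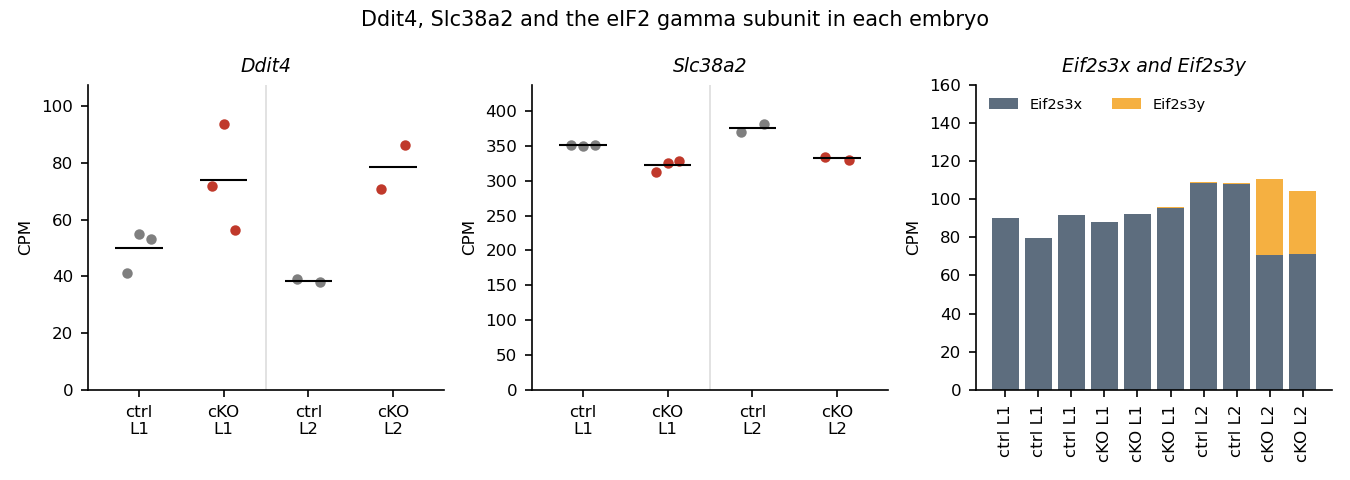
Ddit4 and Slc38a2 in CPM in each embryo (controls grey, Dot1l-cKO embryos red, bar at the mean of each litter and genotype), and stacked bars of Eif2s3x and Eif2s3y in CPM for each embryo. Every red Ddit4 point lies above every control and every red Slc38a2 point below, where groups did not overlap for 1.92% of all genes. The 2 litter 2 Dot1l-cKO embryos have Eif2s3y in place of part of Eif2s3x.

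Downstream, other targets of ATF4 gave no call. Of 11 amino acid transporter genes 0 passed and 10 had negative values (median log2 fold change -0.06). Slc38a2, the SNAT2 transporter that amino acid shortage induces, was at 351, 349 and 351 CPM in litter 1 controls and 312, 326 and 328 CPM in the Dot1l-cKO embryos, and at 370 and 381 CPM in litter 2 controls and 334 and 329 CPM in the Dot1l-cKO embryos. All 5 lay below all controls, where 1.92% of all genes had groups that did not overlap. The log2 fold change of -0.14 (standard error 0.04) missed the threshold (adjusted p = 0.0535). Slc43a1, a transporter of large neutral amino acids, was at -0.29 (adjusted p = 0.336), and Slc7a11, the cystine transporter, at -0.15 (adjusted p = 0.504). Among controls 6 of the 11 transporter genes were lower in litter 2 and 0 higher (median log2 fold change -0.28), beside 13.0% of all genes lower, with Slc7a11 at -1.04 (adjusted p = 0.000217).

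Of 10 further serine and one-carbon enzymes 0 passed and 7 were negative (median log2 fold change -0.10), among them Mthfd1l at -0.22 (adjusted p = 0.0701) and Shmt1 at -0.23 (adjusted p = 0.131). Among controls 5 of these 10, Shmt1, Mthfd1, Tyms and Gldc among them, were higher in litter 2, beside 12.7% of all genes. Of 21 genes for tRNA charging and export 0 passed and 19 were negative (median -0.07), with Iars at -0.14 (adjusted p = 0.0745) and Lars at -0.13 (adjusted p = 0.0855). Among controls 7 of them were higher in litter 2, beside the same 12.7%. Progenitor markers were higher in the same comparison, and their part in these list counts was not tested. Of 12 other stress response targets 0 passed (median -0.02), with Vldlr at -0.13 (adjusted p = 0.200) and Vegfa at -0.11 (adjusted p = 0.288).

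Other stress programmes gave no call either. Of 21 genes of the XBP1 and ATF6 arms of the endoplasmic reticulum response 0 passed and 16 were negative (median log2 fold change -0.04), with the chaperones Pdia6 at -0.13 (adjusted p = 0.122) and Hyou1 at -0.10 (adjusted p = 0.140). The largest changes of that list were those of Syvn1, a ubiquitin ligase of the degradation pathway, at 0.17 (adjusted p = 0.156), and Edem1, which acts in the same pathway, at -0.16 (adjusted p = 0.163). Of 10 mitochondrial stress genes 0 passed and 7 were negative (median -0.06). The nuclease Endog was at 0.44 (adjusted p = 0.317), the protease subunit Clpp at 0.23 (adjusted p = 0.140) and the protease Lonp1 at -0.09 (adjusted p = 0.185). Of 10 cell death genes 0 passed, 5 were positive and 5 negative (median 0.01), with the p53 target Bbc3 at 0.70 (adjusted p = 0.0817) and Bid at 0.23 (adjusted p = 0.0888). The immediate-early and heat shock genes, rapid responders to many stimuli, had 14 of 15 positive values and a median of 0.21 (0.13 within litter 1 and 0.47 within litter 2), with 0 passing. Dusp1 was at 0.20 (adjusted p = 0.0677), with every Dot1l-cKO embryo above every control, where 1.92% of all genes had groups apart. Jun was at 0.32 (adjusted p = 0.118), Junb at 0.85 (adjusted p = 0.119) and Hspa1b, which has a near-identical copy, at 0.67 (adjusted p = 0.155). In litter 1, Dot1l-cKO embryo 3 was the highest of all 10 embryos for Jun (93.4 CPM), Junb (4.17 CPM), Hspa1b (2.31 CPM) and Bbc3 (19.4 CPM), while Dot1l-cKO embryo 7 lay below all controls of its litter for Jun (54.2 CPM), Junb (1.19 CPM) and Bbc3 (7.52 CPM). Without embryo 7 the median of the 15 genes was 0.33 and 4 of them, Hspa1b, Jun, Junb and Jund, passed, where 7.29% of all genes did in that fit. With Xist as a covariate, which goes with genotype within litter 2, the median was 0.11, with 10 of 15 positive and 0 passing. Without embryo 3 the median was 0.17, with 13 of 15 positive and 0 passing. Among controls 3 of the 15 were lower in litter 2 and 0 higher (median log2 fold change -0.46), beside 13.0% of all genes lower. Of the other lists, 5 of 10 mitochondrial genes, 4 of 11 kinase and phosphatase genes and 4 of 8 eIF2 and eIF2B subunits were higher in litter 2 controls and 0 lower, and the ATF4 partner, other target, endoplasmic reticulum and cell death lists had 0 to 2 genes in each direction, beside 12.7% of all genes higher and 13.0% lower. The progenitor markers higher in litter 2 controls and the ganglion markers lower there moved with these counts too, and their part was not tested. At an unadjusted p below 0.05 stood 5 of these 15 genes, 6 of the 21 for tRNA charging and export, 4 of the 21 endoplasmic reticulum genes, 3 each of the kinase and phosphatase, one-carbon and cell death lists, 2 each of the ATF4 partner and mitochondrial lists, 1 each of the transporter and other target lists, and 0 of the eIF2 and eIF2B subunits, where 22.2% of all genes stood.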

How the data were processed

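The authors trimmed reads with TrimGalore, aligned them to mm10 with STAR and deposited raw counts per gene from featureCounts, run through snakePipes. Names and positions came from GENCODE M21 of GRCm38, the same build. Members and lists were chosen with earlier results of these data known, and named list genes were those past the threshold or, failing that, the 2 with the lowest p and the 2 largest changes at a mean of at least 1 CPM. Some genes are not reported here.

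Counts were filtered with edgeR's default filter, scaled by TMM and tested with the quasi-likelihood test of edgeR 4.0.16 in R 4.3.3 (litter and genotype, or a mean per litter and genotype), with Benjamini-Hochberg adjustment over 18901 genes at 0.05. Intervals are 95%, and a standard error is the log2 fold change over the root of F. DESeq2 1.42.0, limma 3.58.1, other filters and covariates, and fits without each embryo were alternatives. Tested on simulated data for the comparison over both litters (18901 genes), 73% of 200 genes changed by 0.8 on the log2 scale were recovered, and 6.41% of calls were unchanged genes. To look for duplicate libraries, the 8 pairs of embryos within a litter and genotype were compared, and none matched within counting noise (chi-square per gene 9.19 to 26.7). Total counts were 40949585 to 68928443. The 95% intervals come from the quasi-likelihood fit and include the spread between embryos, while the spread that counting alone gives covers counting error only.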

Additional observations from a re-analysis of the deposited data

Results flagged for a closer look

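A single value stood apart within its group. Atf3 in control embryo 5 of litter 2 was at 0.976 CPM, while the other 4 controls lay between 1.46 and 1.58 CPM. In all, 20 groups of 5 embryos (10 genes, 2 genotypes) were examined in this way, and chance sets about 1 in 20 apart. Leaving that embryo out gave Atf3 a log2 fold change of -0.21 over both litters.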

How the results depend on the processing

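Of 400 refits of a log2 fold change of the 10 genes, 357 kept the direction and the side of the threshold, 28 changed sign, 9 passed that had not and 6 no longer passed, and each change of sign was of a value that had not passed. Counts over both litters were 376 genes higher and 226 lower. DESeq2 gave 860 and 648, no filter on low counts gave 1346 and 855 (with 1 of the 10 genes, Atf5, higher), no litter term gave 0 and 0 (1867 genes at an unadjusted p below 0.05), and Xist as a covariate gave 13 and 29. With Xist, which goes with genotype within litter 2, the log2 fold change was -0.00042 for Atf4, -0.059 for Trib3 and -0.019 for Asns. Within litter 1 (53 and 72), the litter alone gave 1 and 11 and DESeq2 gave 295 and 352. Within litter 2 (29 and 7), the litter alone gave 747 and 217 and DESeq2 gave 413 and 136, each with 1 of the 10 genes, Atf5, higher. Among controls, 2 of the 10 genes, Asns and Atf5, were lower in litter 2 with controls alone in the fit, with DESeq2 and with no filter. These alternatives on controls, and all refits of Ddit4 and of the immediate-early list, were chosen after seeing the data. Leaving out each embryo in turn gave 31 to 972 genes higher and 17 to 422 lower over both litters, with 0 to 1 of the 10 genes higher. It gave 0 to 239 higher and 2 to 430 lower within litter 1, and 2 to 7 higher and 1 lower within litter 2. Among controls it gave 1044 to 2195 higher and 1131 to 2102 lower in litter 2, with 0 to 1 of the 10 genes in each direction. The ranges of log2 fold changes that crossed 0 were, over both litters, Atf4 from -0.018 to 0.031 and Asns from -0.0051 to 0.065. Within litter 1 they were Atf4 from -0.038 to 0.050, Atf5 from -0.013 to 0.29, Ddit3 from -0.015 to 0.079, Trib3 from -0.21 to 0.15, Asns from -0.064 to 0.041 and Sesn2 from -0.048 to 0.12. Within litter 2 they were Atf4 from -0.064 to 0.082, Atf3 from -0.23 to 0.41, Ddit3 from -0.0074 to 0.20, Chac1 from -0.14 to 0.35, Asns from -0.0027 to 0.19, Psat1 from -0.033 to 0.10 and Phgdh from -0.18 to 0.13. Among controls Psat1 ran from -0.096 to 0.039. A fit without an embryo of litter 2 leaves a lone embryo in its group, which is assumed to vary like the others. The cause of these changes was not tested. No paired analysis was possible because each embryo has its own number within a litter. Counts were lowest for Atf3, Trib3 and Chac1, at means of 75.5, 80.2 and 136 per embryo, and the precision of their values is limited by depth as well as by the spread between embryos.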
